A study of Mus musculus with 12 samples.

Results

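Toll-like receptors (TLRs), their co-receptors and their adaptors were examined in endothelial cells from mouse ear skin. The set was fixed by gene name and holds 10 genes of the 30743 that had a row of their own in the deposited table. They are the receptors Tlr2, Tlr3, Tlr4, Tlr5, Tlr7 and Tlr9, the co-receptors Cd14 and Ly96, and the adaptors Myd88 and Ticam1. Each was measured by 1 transcript cluster, the array's unit for a gene, so no choice among rows was needed.

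The mice were of strain C57BL6, given as adult and as 5 weeks old, and all carried the transgenic reporter Prox1-GFP (Tg(Prox1-EGFP)KY221Gsat), in which GFP marks lymphatic endothelial cells (LEC). Cells were enriched on beads coated with antibody to PECAM1 and sorted live. LEC, positive for PDPN and Prox1-GFP, were divided by LYVE1 into collecting vessel cells (col LEC, low or negative), pre-collecting vessel cells (pre-col LEC, intermediate) and capillary cells (cap LEC, high). Blood endothelial cells (BEC) were positive for PECAM1 and negative for PDPN, Prox1-GFP and LYVE1. Each of the 4 groups had 3 arrays labelled biological replicates, 12 in all. The labels do not say whether an array came from a single mouse or a pool, so the p-values measure the spread between these samples. The groups are gates on surface proteins and the GFP reporter and not dissected vessels.

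TLRs are innate immune receptors that bind molecules of microbes or of damaged cells. At the cell surface, TLR2 binds bacterial lipoproteins, TLR4 lipopolysaccharide and TLR5 flagellin. Inside endosomes, TLR3 binds double-stranded RNA, TLR7 single-stranded RNA and TLR9 DNA rich in unmethylated CpG. CD14 hands lipopolysaccharide to TLR4 and its partner MD-2, the product of Ly96. Signals pass through MYD88, which all of these receptors except TLR3 use, or through TRIF, the product of Ticam1, which TLR3 and TLR4 use. Both routes activate NF-kB. TRIF also leads to type I interferon, as does MYD88 downstream of TLR7 and TLR9. Endothelial cells use these receptors to answer microbes with adhesion molecules, cytokines and chemokines.

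The promoters of Myd88 and Tlr2 are shown because these genes passed a test between groups. They are the 250 bases before the transcription start, from RefSeq (build GRCm38.p6), 5′ to 3′ on the gene's strand, where positions count back from -1 next to the start. That table held 6 of the 10 genes. In the first sequence capitals mark an interferon-stimulated response element (ISRE) letter match, and in the second a pair of overlapping NF-kB consensus matches.
Myd88, chr9:119340019-119340268, minus strand: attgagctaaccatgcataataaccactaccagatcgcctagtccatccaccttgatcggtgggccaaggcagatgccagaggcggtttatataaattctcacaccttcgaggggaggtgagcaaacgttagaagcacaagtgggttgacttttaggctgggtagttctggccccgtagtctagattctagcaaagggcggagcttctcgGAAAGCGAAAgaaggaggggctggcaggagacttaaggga
Tlr2, chr3:83841609-83841858, minus strand: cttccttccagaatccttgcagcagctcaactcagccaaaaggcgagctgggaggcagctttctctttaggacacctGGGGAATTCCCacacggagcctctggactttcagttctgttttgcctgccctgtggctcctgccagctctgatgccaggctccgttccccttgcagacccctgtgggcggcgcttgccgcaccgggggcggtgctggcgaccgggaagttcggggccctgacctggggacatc

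The ISRE letters searched were TTTC, any 2 bases and TTTC again, on both strands, and the match in Myd88 was GAAAGCGAAA at -40 to -31, on the opposite strand. Of 32851 mouse promoters of the same length, 978 (2.98%) held such a match, and of the 6 searched genes only Myd88 did. The NF-kB consensus was found in 7.25% of these promoters. Among the 6 genes it was found in Tlr2, at -173 to -163 with matches overlapping on both strands, and in Tlr3, at -211 to -202. These are letter matches and not measured binding sites.

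All values are log2 values after RMA, an array normalization. The median value of an array lay between 6.06 and 6.17. A gene was tested when it exceeded the array's median on at least 3 of the 12 arrays, which 19675 genes did. Of the 10 genes, Tlr2, Tlr3, Tlr5, Cd14, Myd88 and Ticam1 exceeded it on 12 arrays and Tlr9 and Ly96 on 11. Tlr4 exceeded it on 2 arrays, both from BEC, and Tlr7 on 0, so these 2 genes were not tested in the main setting. In bulk cells, fewer cells that express a gene and less RNA per cell cannot be told apart.

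The LEC and BEC arrays carried the markers of their labels. The mean of 7 lymphatic endothelial markers lay between 11.09 and 11.70 on the LEC arrays and between 6.96 and 7.92 on the BEC arrays. This list was drawn up with Prox1, Pdpn and Lyve1, which also defined the gates, so part of its separation was fixed by the sort. The labels of the LEC subtypes were not checked in this way. The mean of 7 blood endothelial markers lay between 7.26 and 8.14 on the LEC arrays and between 11.12 and 11.17 on the BEC arrays. Mural cell markers, genes of pericytes and smooth muscle, moved with the same comparison. Their mean over 8 genes was 6.80 to 8.44 on the LEC arrays and 9.36 to 9.65 on the BEC arrays, and all 8 were lower in LEC than in BEC. Pre-col LEC replicate 1 stood apart from the other LEC arrays, with the highest mural mean (8.44) and the highest fibroblast mean (8.61, against 6.54 to 7.70 on the other LEC arrays). The mean of 14 macrophage and monocyte markers ranged from 6.19 to 6.46 over all arrays, and 9 to 10 of the 14 exceeded the array's median on each. Csf1r and Fcer1g exceeded it on all 12 arrays and Lyz2 on 3 (up to 7.27, on cap LEC replicate 1), while Ptprc, Adgre1, Itgam and Cybb exceeded it on 0. Mast cell markers (5 genes) averaged 5.50 to 5.70 on the LEC arrays and 6.08 to 6.1 on the BEC arrays, and 1 of the 2 tested was lower in LEC. Of the other lists, 2 of 5 keratinocyte, 1 of 6 fibroblast and 4 of 8 general endothelial markers tested were lower in LEC and 0 higher. Of immune cell markers tested, 1 of 10 macrophage, 1 of 6 dendritic cell, 1 of 3 neutrophil and 0 of 3 lymphocyte markers were lower and 0 higher. Over all genes tested, 10.6% were lower and 12% higher in LEC at the same threshold.

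**Figure D1:**
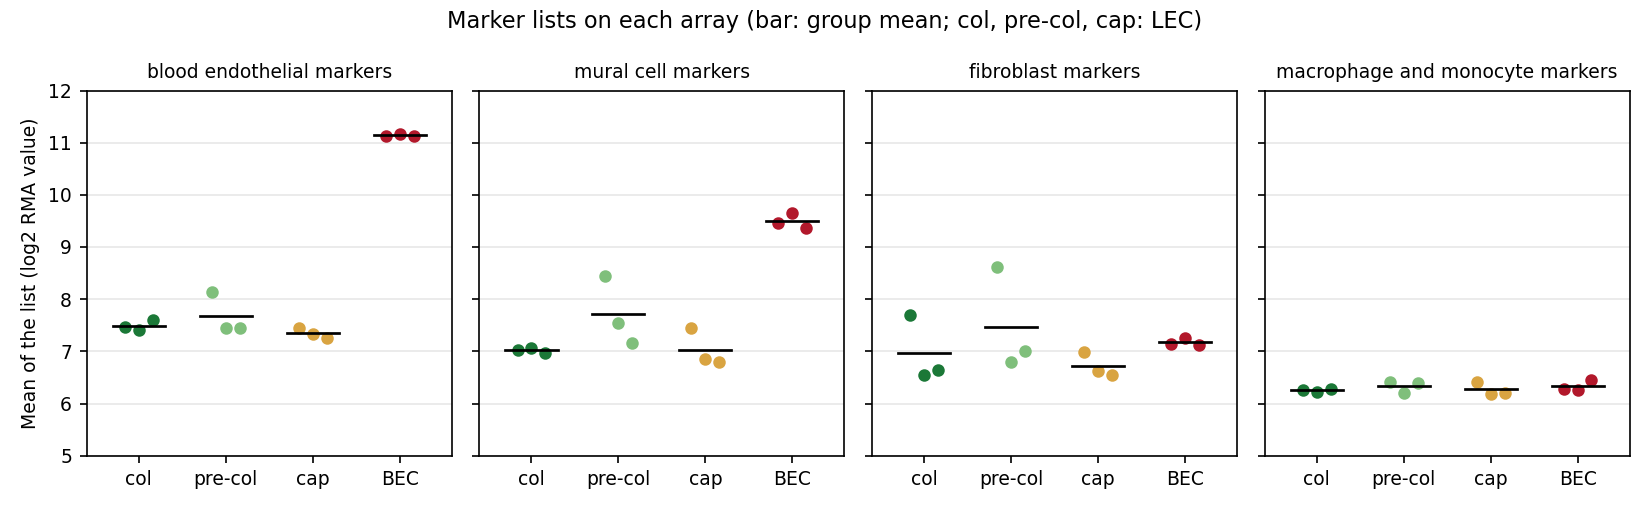
Mean log2 RMA value of 4 marker lists (y axis) on each array (points), by group (x axis), with the group mean as a bar. Mural cell markers were at 9.36 to 9.65 on the BEC arrays, pre-col LEC replicate 1 was the highest LEC array for mural (8.44) and fibroblast (8.61) markers, and the macrophage list ranged only from 6.19 to 6.46.

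Lymphatic endothelium was set against blood endothelium first. Myd88, the adaptor shared by most TLRs, was the only gene of the 8 tested that differed between the mean of the LEC groups and BEC, and it was lower in LEC. Tlr4, which was too dim to be tested, was also lower in LEC by its values. The other 7 tested genes did not pass. The 1 call among 8 stands beside 22.6% of all 19675 genes called in this comparison, 10.6% in the lower direction, so the share is not above the background. The median log2 difference was -0.01 over the 8 genes and -0.02 over all genes tested.

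Myd88 (TC0900003241.mm.1) had log2 values of 8.04, 8.26 and 8.13 in col LEC, 8.05, 8.14 and 8.59 in pre-col LEC, 8.25, 8.32 and 8.42 in cap LEC, and 9.14, 9.26 and 9.05 in BEC. Every LEC array lay below every BEC array. The log2 difference, LEC minus BEC, was -0.90 ± 0.11 (limma's SE, n = 3 arrays per group, adjusted p = 4.2e-05), a level 0.534 times that of BEC. Each subtype was lower on its own, by -1.01 ± 0.13 in col LEC (adjusted p = 0.000132), -0.89 ± 0.13 in pre-col LEC (adjusted p = 0.000352) and -0.82 ± 0.13 in cap LEC (adjusted p = 0.00064). These 3 comparisons share the BEC arrays. Refitting without each of the 12 arrays gave 12 calls of Myd88, with a highest adjusted p of 0.000529. The means of the mural and mast cell lists were higher in BEC too, with 1 of the 2 tested mast cell markers called. Their part in the Myd88 difference was not tested. Among the LEC groups the order was col LEC (8.14 ± 0.11), pre-col LEC (8.26 ± 0.29) and cap LEC (8.33 ± 0.08, SD), and no neighbours in it differed beyond their spread.

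Ticam1 (TC1700002320.mm.1), the TRIF adaptor gene, had values of 7.63, 7.63 and 7.29 in col LEC, 7.24, 7.52 and 7.35 in pre-col LEC, 7.49, 7.58 and 7.15 in cap LEC, and 7.50, 7.92 and 7.76 in BEC. LEC and BEC arrays overlapped, through BEC replicate 1. The log2 difference was -0.29, with a 95% interval of -0.56 to -0.03 and an adjusted p of 0.103 by limma. Without BEC replicate 1 it was -0.41 (adjusted p = 0.0448).

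**Figure D2:**
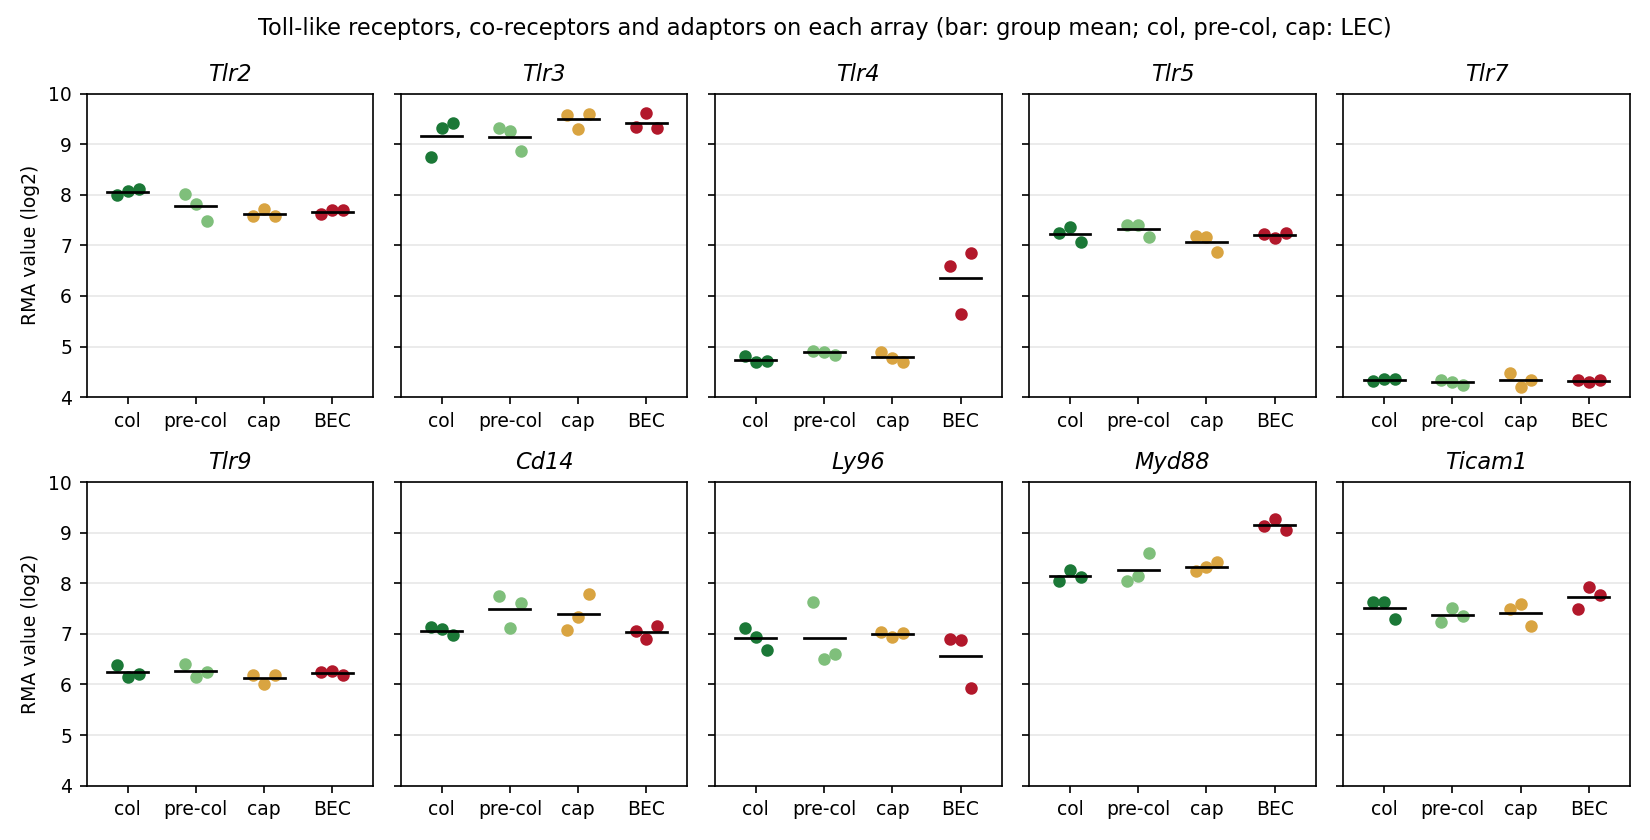
Log2 RMA value (y axis, the same scale in each panel) of the 10 genes on each array (points) in col, pre-col and cap LEC and in BEC (x axis), with the group mean as a bar. Myd88 and Tlr4 show every LEC array below every BEC array, Tlr2 is highest in col LEC (8.0 to 8.12), and Tlr7 stays between 4.20 and 4.48 on all arrays.

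The lipopolysaccharide receptor complex was read gene by gene. Tlr4 (TC0400000743.mm.1) had values of 4.82, 4.69 and 4.71 in col LEC, 4.92, 4.90 and 4.83 in pre-col LEC, 4.90, 4.77 and 4.70 in cap LEC, and 6.59, 5.64 and 6.85 in BEC. All LEC arrays lay within 4.69 to 4.92 and below the lowest BEC array. The platform's 23 background control rows had medians of 4.16 to 4.56 per array, so the LEC values were near the low end of the scale. The difference of means was -1.55. When every gene was tested without the filter, limma gave an SE of 0.19 and an adjusted p of 8.3e-05 for it, and in the fits that also left out 1 array it ranged from -1.91 to -1.31. The SD was 0.63 in BEC, beside 0.07, 0.05 and 0.10 in col, pre-col and cap LEC. All of these fits share 1 estimate of spread over the groups. The SE therefore understates the spread within BEC, and the adjusted p may be too small. The means of the mural and mast cell lists were higher in BEC here as well, with 1 of the 2 tested mast cell markers called. Their part in the Tlr4 difference was not tested. Within BEC, replicate 2 had the lowest Tlr4 (5.64) and the highest mural mean (9.65). Replicate 3 had the highest Tlr4 (6.85) and the lowest mural mean (9.36). The macrophage mean was 6.28, 6.26 and 6.46 on BEC replicates 1, 2 and 3. The dendritic cell (6.09) and keratinocyte (7.13) means were also highest on BEC replicate 3. The part of these cells in the Tlr4 values was not tested.

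Ly96 (TC0100000103.mm.1), which encodes MD-2, had values of 7.12, 6.94 and 6.69 in col LEC, 7.63, 6.51 and 6.61 in pre-col LEC, 7.04, 6.93 and 7.02 in cap LEC, and 6.89, 6.87 and 5.93 in BEC. Its log2 difference, LEC minus BEC, was 0.38 with a 95% interval of -0.15 to 0.91 (adjusted p = 0.294 by limma). BEC replicate 3 lay apart from the other BEC arrays, and without it the difference was 0.06.

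Cd14 (TC1800001197.mm.1) had values of 7.13, 7.09 and 6.97 in col LEC, 7.74, 7.12 and 7.61 in pre-col LEC, 7.07, 7.33 and 7.79 in cap LEC, and 7.06, 6.90 and 7.15 in BEC. The spread within pre-col LEC (SD 0.33) and cap LEC (SD 0.36) was wider than within col LEC (SD 0.08) and BEC (SD 0.12). The LEC minus BEC difference was 0.28 (95% interval -0.05 to 0.60, adjusted p = 0.216 by limma). Pre-col LEC replicate 1 was the highest array for Ly96 (7.63) and the second highest for Cd14 (7.74). The mean of the macrophage list was 6.41 there, and Fcer1g (7.06) and Ptprc (4.94, below the array's median) had their highest values. Lyz2 (7.27) and the antigen-presenting cell gene H2-Aa (6.86) were highest on cap LEC replicate 1, where Cd14 was at 7.07. Cap LEC replicate 3 was the highest array for Cd14 (7.79). The macrophage mean was 6.42, 6.19 and 6.21 on cap LEC replicates 1, 2 and 3. On pre-col LEC replicates 1, 2 and 3 it was 6.41, 6.21 and 6.39. Lyz2 was at 7.10, 5.54 and 6.77 on these pre-col LEC arrays and H2-Aa at 6.76, 5.99 and 6.53, the same order as Cd14. The part of other cells in the values of Ly96 and Cd14 was not tested.

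The remaining surface receptors came next. Tlr2 (TC0300002236.mm.1) had values of 8.0, 8.07 and 8.12 in col LEC, 8.02, 7.81 and 7.49 in pre-col LEC, 7.57, 7.71 and 7.58 in cap LEC, and 7.61, 7.69 and 7.70 in BEC. The col LEC arrays lay above all cap LEC and BEC arrays and overlapped pre-col LEC through its replicate 1. Tlr2 was higher in col LEC than in BEC by 0.39 ± 0.11 (SE, n = 3 arrays per group, adjusted p = 0.0341 by limma), or 1.31-fold. With Myd88 it made 2 calls among the 8 genes in this comparison, where 16.2% of all genes tested were called. The call ended without any 1 of the 6 arrays compared, with a highest adjusted p of 0.114 without col LEC replicate 3, at 0.37. Over all LEC groups the difference from BEC was 0.15 (95% interval -0.05 to 0.35, adjusted p = 0.28 by limma).

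Tlr5 (TC0100001754.mm.1), the flagellin receptor gene, had values of 7.24, 7.37 and 7.07 in col LEC, 7.41, 7.40 and 7.16 in pre-col LEC, 7.18, 7.16 and 6.87 in cap LEC, and 7.23, 7.14 and 7.25 in BEC. All groups overlapped. The LEC minus BEC difference was 0.00 with a 95% interval of -0.20 to 0.20 (adjusted p = 0.992 by limma), the sign of which changed when single arrays were left out.

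The endosomal receptors showed no difference that passed a test. Tlr3 (TC0800002146.mm.1) had values of 8.75, 9.31 and 9.42 in col LEC, 9.32, 9.26 and 8.86 in pre-col LEC, 9.57, 9.29 and 9.60 in cap LEC, and 9.34, 9.62 and 9.32 in BEC. Its LEC minus BEC difference was -0.16 (95% interval -0.48 to 0.16, adjusted p = 0.459 by limma), and the groups overlapped. Tlr9 (TC0900001339.mm.1) had values of 6.39, 6.15 and 6.21 in col LEC, 6.40, 6.15 and 6.24 in pre-col LEC, 6.19, 6.01 and 6.19 in cap LEC, and 6.25, 6.26 and 6.19 in BEC. All of these were close to the array median, and the LEC minus BEC difference was -0.02 (95% interval -0.18 to 0.15, adjusted p = 0.871 by limma). Tlr7 (TC0X00003360.mm.1) had values of 4.31, 4.36 and 4.36 in col LEC, 4.34, 4.29 and 4.25 in pre-col LEC, 4.48, 4.20 and 4.34 in cap LEC, and 4.33, 4.30 and 4.33 in BEC. These lay within the range of the background control medians, so no difference could be read from them.

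**Figure D3:**
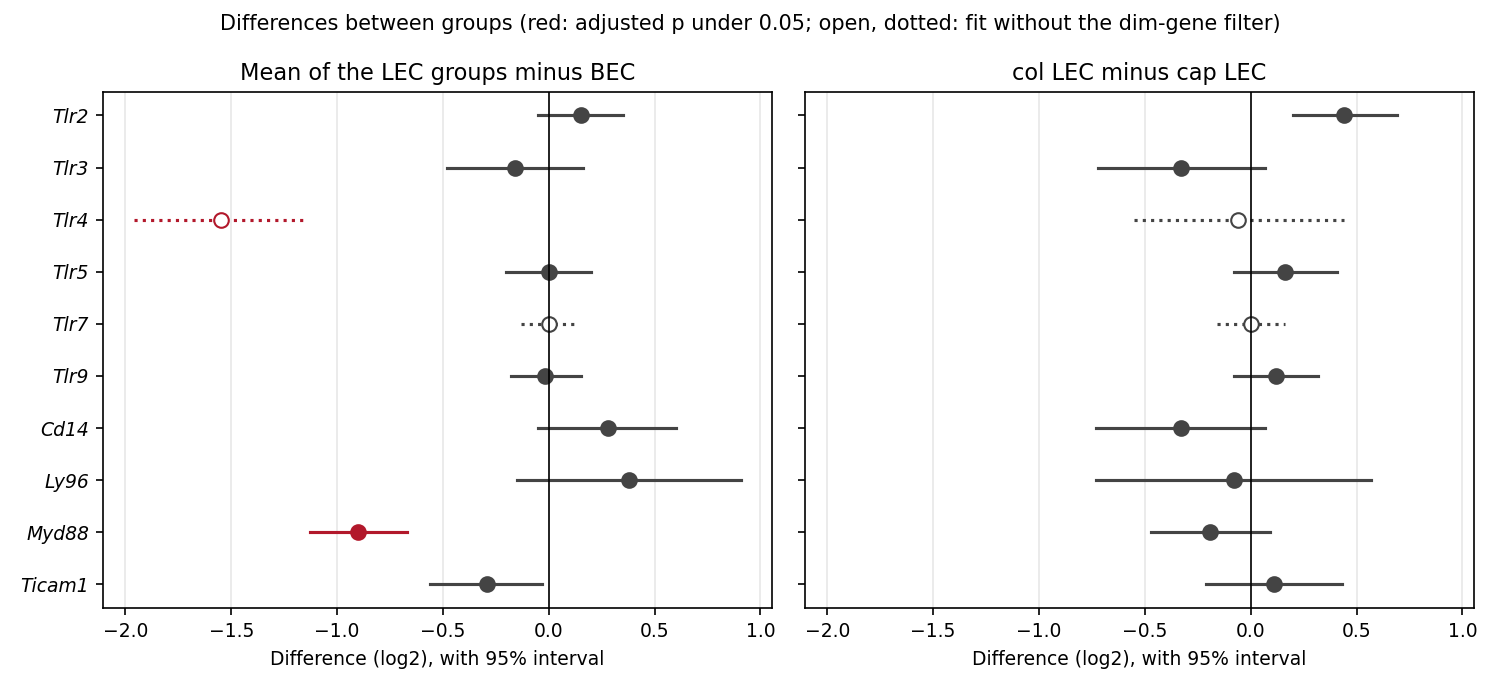
Log2 difference (x axis) of each gene (y axis) between the mean of the LEC groups and BEC (left) and between col LEC and cap LEC (right), with limma's 95% interval. Red marks an adjusted p under 0.05, and open points with dotted intervals are Tlr4 and Tlr7 from the fit without the filter. The intervals rest on 1 estimate of spread shared by the groups, although Tlr4 varied more within BEC (SD 0.63). On the left the intervals of Myd88 (-0.90), Tlr4 (-1.55) and Ticam1 (-0.29, not called) lie below 0, and on the right Tlr2 (0.44) has the only interval that does not reach 0.

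Within the lymphatic tree, col LEC were set against cap LEC, the ends of the LYVE1 gradient. None of the 8 tested genes was called by limma, where 1.64% of all genes were, and 1 had an unadjusted p under 0.05, as did 2059 of all 19675 genes. That gene was Tlr2, at 0.44 ± 0.11 (95% interval 0.20 to 0.69, adjusted p = 0.0908), with no overlap between the col LEC and cap LEC arrays. A fit of only the 2 groups called it (adjusted p = 0.0401), as did a fit that weighted the arrays (adjusted p = 0.0396). Leaving out replicate 1 or 3 of pre-col LEC, arrays outside this comparison, also gave a call (adjusted p = 0.0382 and 0.0285). These were the only 2 calls of Tlr2 among the 12 fits that left out 1 array. Leaving out any array of col LEC or cap LEC gave no call, with an adjusted p of up to 0.265 by limma. The 6 other alternatives that left out no array gave no call either. Tlr3 was at -0.33 (95% interval -0.72 to 0.07) and Cd14 at -0.33 (-0.73 to 0.07), both with an adjusted p of 0.579 by limma. Myd88 was at -0.19 (-0.47 to 0.09), Tlr5 at 0.16 (-0.08 to 0.41) and Tlr9 at 0.12 (-0.08 to 0.32). Ticam1 was at 0.11 (-0.21 to 0.43) and Ly96 at -0.08 (-0.73 to 0.57). The intervals of Tlr3, Cd14, Myd88 and Ly96 reach a difference of the size measured for Tlr2 (0.44) in at least 1 direction, and those of Tlr5, Tlr9 and Ticam1 do not.

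The steps between neighbouring vessel types gave no call by limma among these genes either. In pre-col LEC minus cap LEC, 0 of the 8 genes and 0% of all genes were called, and 1 of the 8, Tlr5, had an unadjusted p under 0.05 (0.0394), as did 1257 of all genes. Its log2 difference was 0.26 (95% interval 0.01 to 0.50). In col LEC minus pre-col LEC, 0 of the 8 genes and 0.3% of all genes were called, and 2 of the 8, Tlr2 and Cd14, had an unadjusted p under 0.05 (0.0269 and 0.0396), as did 1150 of all genes. Their log2 differences were 0.29 and -0.42. Against BEC, pre-col LEC and cap LEC each had 1 call among the 8, Myd88, where 15.5% and 20.7% of all genes were called.

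The pattern of Myd88 over the 4 group means was closest to that of 3 other genes among the 19675 tested, by the root mean square difference of centred group means. They were Msx1, a homeobox transcription factor gene (0.009), Stat2, a transcription factor gene of type I interferon signalling (0.016), and Zfpm1, a cofactor of GATA factors (0.032). In col, pre-col and cap LEC and BEC, Msx1 averaged 6.17, 6.29, 6.36 and 7.20, Stat2 8.78, 8.90, 9.01 and 9.82, and Zfpm1 8.43, 8.62, 8.62 and 9.45. The LEC minus BEC difference was -0.92 ± 0.14 for Msx1 (adjusted p = 0.000379 by limma), beside -0.90 for Myd88. It was -0.92 ± 0.12 for Stat2 (adjusted p = 0.000115) and -0.89 ± 0.15 for Zfpm1 (adjusted p = 0.000811). Because the 3 genes were picked by their group means, differences near that of Myd88 were fixed by the choice and are no separate result. The root mean square differences are smaller than these SEs, so the order of the 3 genes is not resolved. A cause of this likeness was not tested.

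Around these genes, 88 other genes of the pathway were listed by role in 8 lists, of which 62 could be tested. In LEC minus BEC, 8 were higher and 23 lower, beside 12% and 10.6% of all genes. In col LEC minus cap LEC 0 of the 62 were called by limma, and 12 had an unadjusted p under 0.05, beside 2059 of all 19675 genes. These lists hold genes with many other inputs than TLRs. The means of the mural and mast cell lists were higher in BEC, and 2 of 5 tested keratinocyte markers were lower in LEC. The part of these cells in the LEC minus BEC differences was not tested.

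Of 10 other receptors and receptor partners, 3 were tested, with 1 higher and 1 lower in LEC. Lbp, which encodes the protein that binds lipopolysaccharide and passes it to CD14, was among the clearest differences. It had values of 12.68, 12.82 and 12.81 in col LEC, 12.55, 12.88 and 12.83 in pre-col LEC, 12.81, 12.88 and 12.83 in cap LEC, and 10.81, 10.54 and 10.77 in BEC. The log2 difference was 2.08 ± 0.08 (adjusted p = 3.08e-09 by limma), or 4.23-fold, with no overlap. Cd36, a scavenger receptor that partners TLR2 and also takes up fatty acids, averaged 7.02 ± 0.43 in col LEC, 8.20 ± 0.81 in pre-col LEC, 8.13 ± 0.62 in cap LEC and 12.25 ± 0.28 in BEC (SD, n = 3). It was lower in LEC by -4.47 ± 0.32 (adjusted p = 5.18e-07). Tlr1, Tlr6, Tlr8, Tlr11, Tlr13, Cd180 and Ly86 did not exceed the array's median on any array. Tlr1 and Tlr6 encode the receptors that pair with TLR2.

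Of 4 genes for receptor folding and transport, 1 was called. Nrros, a negative regulator of TLR signalling that also holds latent TGF-beta, was lower in LEC by -0.97 ± 0.09 (adjusted p = 7.36e-06 by limma). Unc93b1, which carries the endosomal TLRs to their compartment, exceeded the array's median on all 12 arrays and was at 0.09 (95% interval -0.12 to 0.30). Of 5 other adaptors, 4 were tested and 1 was lower, Sarm1, at -0.22 ± 0.06 (adjusted p = 0.023), a call that ended under cyclic loess and without BEC replicate 2 or 3 (adjusted p = 0.0538, 0.098 and 0.0844). Tirap, the bridge between TLR2 or TLR4 and MYD88, was at -0.28 (95% interval -0.49 to -0.06, adjusted p = 0.0635). Ticam2, the bridge between TLR4 and TRIF, did not exceed the array's median on any array.

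**Figure D4:**
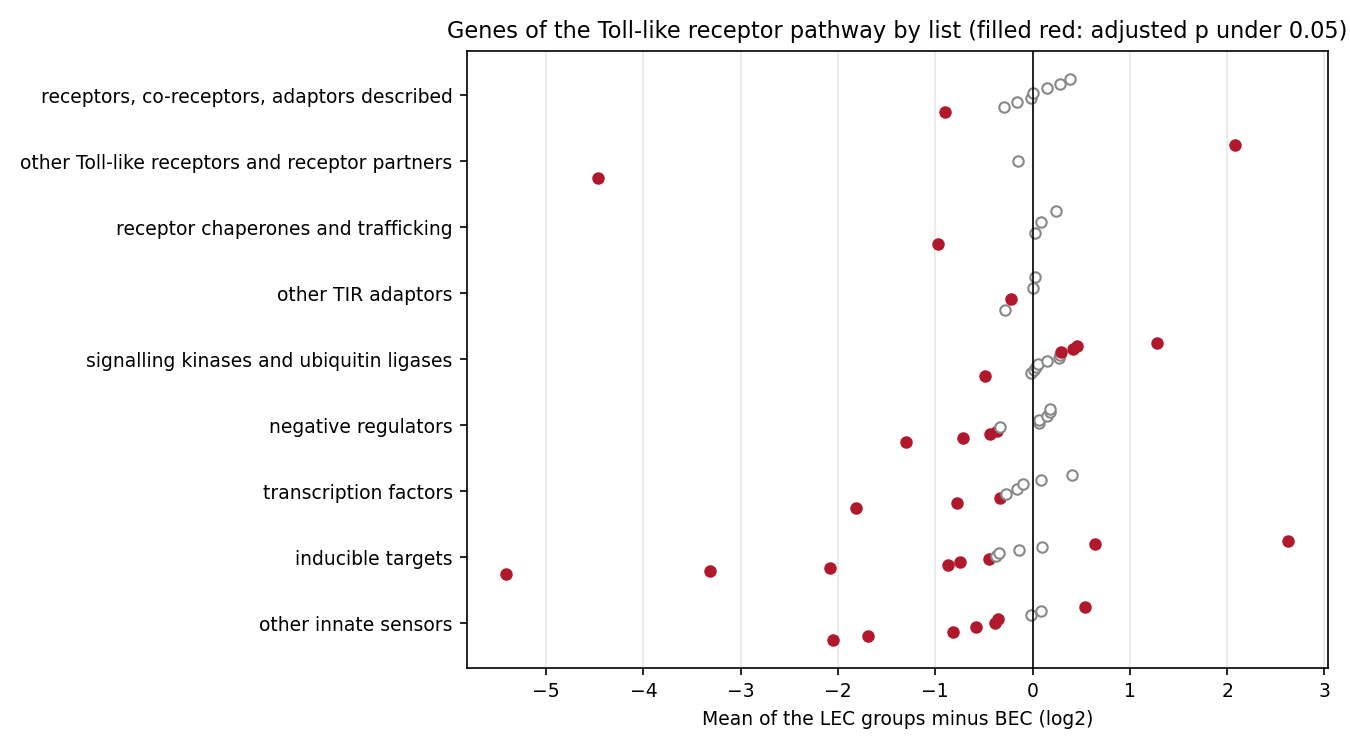
Log2 difference between the mean of the LEC groups and BEC (x axis) for each tested gene (points), by list (y axis), with calls at an adjusted p under 0.05 filled in red. Tlr4 and Tlr7 were not tested and are not shown. Of the 62 genes in the lists below the first line, 8 were higher and 23 lower in LEC, with Sele (-5.41), Cd36 (-4.47) and Il6 (-3.32) farthest below 0 and Lcn2 (2.63) and Lbp (2.08) farthest above.

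Of 17 signalling kinase and ubiquitin ligase genes, 12 were tested, with 4 higher and 1 lower in LEC (median 0.21). Peli2, an E3 ligase that acts on IRAK kinases, was higher by 1.28 ± 0.13 (adjusted p = 1.69e-05 by limma), and Ikbke, an IKK-related kinase, by 0.46 ± 0.09 (adjusted p = 0.00215). Irak2, a kinase recruited by MYD88, was lower by -0.49 ± 0.11 (adjusted p = 0.00664). Of 11 negative regulators, 10 were tested, with 0 higher and 4 lower (median -0.13). Tnfaip3, which encodes the NF-kB inhibitor A20, was lower by -1.30 ± 0.16 (adjusted p = 8.55e-05), and Irak3, an inhibitory member of the IRAK family, by -0.72 ± 0.09 (adjusted p = 0.000125). Socs1, a cytokine signalling inhibitor, was lower by -0.44 ± 0.10 (adjusted p = 0.0058), with overlap between LEC and BEC arrays.

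Of 9 transcription factor genes, 8 were tested, with 0 higher and 3 lower (median -0.22). Irf7, the factor that drives interferon genes downstream of TLR7 and TLR9, had values of 7.80, 7.85 and 8.02 in col LEC, 7.83, 7.63 and 7.68 in pre-col LEC, 7.77, 7.87 and 7.60 in cap LEC, and 9.52, 9.52 and 9.77 in BEC. All LEC arrays lay below all BEC arrays, by -1.82 ± 0.09 (adjusted p = 1.27e-08 by limma). Rel, an NF-kB subunit gene, was lower by -0.78 ± 0.12 (adjusted p = 0.000363). Nfkb2, another subunit gene, was lower by -0.34 ± 0.08 (adjusted p = 0.0111), a call that ended without BEC replicate 3 (adjusted p = 0.0624).

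Of 18 inducible target genes, 12 were tested, with 2 higher and 6 lower in LEC (median -0.42). Sele, the leukocyte adhesion molecule E-selectin, averaged 6.59 ± 0.82 in col LEC, 5.73 ± 0.28 in pre-col LEC, 5.43 ± 0.13 in cap LEC and 11.33 ± 0.32 in BEC (SD, n = 3). Its log2 difference was -5.41 ± 0.26 (adjusted p = 1.78e-08 by limma). The cytokine gene Il6 was lower by -3.32 ± 0.24 (adjusted p = 6.72e-07). Lcn2, which encodes a protein that binds bacterial siderophores, went the other way, with 9.51 ± 0.16 over the 9 LEC arrays and 6.88 ± 0.19 over the 3 BEC arrays (SD) and a difference of 2.63 ± 0.09 (adjusted p = 1.09e-09). Of 15 tested genes that respond to cell handling, 0 were called higher and 4 lower in LEC, beside 12% and 10.6% of all genes. Their median was -0.38, beside -0.02 over all genes, and their part in these targets was not tested.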

How the data were processed

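The deposited table holds log2 values made by the authors with RMA, per the submitters' processing notes. The scale follows from their range. For the RMA software and the array's build, the sources used here name none. Per the labels' protocols, 500 pg of RNA per sample was amplified, which can add noise to dim genes, and RMA compresses differences of weak signals. All 12 arrays were used.

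Of 72688 rows, 31216 named 1 gene in the platform annotation, with 839 symbols updated through RefSeq gene IDs (GRCm38.p6, names only). Rows naming several genes (1534) were not used. A gene was represented by its brightest row. Genes above the array's median on at least 3 arrays were tested with limma 3.58.1 in R 4.3.3: group means over all 12 arrays, contrasts, eBayes, two-sided, Benjamini-Hochberg over 19675 genes, called under 0.05. The fit had 3.63 prior and 8 residual degrees of freedom, and the median SD within groups was 0.141. The number of arrays limits the precision. The code was tested on simulated data. Sequences and motifs came from RefSeq promoters, and plots from matplotlib 3.10.9.

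The genes, lists and tests were chosen with earlier results of these data known. All 10 genes are named. From each other list, up to 3 called genes with the largest change are named per comparison. For each of the 10 called in LEC minus BEC or col LEC minus cap LEC (Myd88), the 3 genes with the most similar group means are named. Ptprc and other markers are named where they define a cell type. Alternatives were a replicate block, only the groups compared, array weights, cyclic loess, an intensity trend, no filter, a stricter filter at the 75th percentile, the mean of a gene's rows, and leaving out each array. Leaving out arrays without the filter, for Tlr4, was added after seeing the data.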

Additional observations from a re-analysis of the deposited data

How the results depend on the processing

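Of 785 values of single genes under the alternatives, 760 were counted as kept, 10 lost a call, 5 gained one and 10 changed sign. Kept means the same direction and side of the threshold, and for Tlr4 the same direction and a shift smaller than the SD within BEC. Some of these differences could not move. In LEC minus BEC, fitting only the groups compared was the main fit again, and each of the 10 genes had 1 row to average. The reference for Tlr4 was the fit without the filter, which was also counted as 1 of its values. The sign changes were of small differences. Tlr5 in LEC minus BEC ranged from -0.03 to 0.03 when single arrays were left out (-0.01, -0.02 or -0.03 in those that turned), and Tlr9 was 0.05 under cyclic loess. In col LEC minus cap LEC, Ly96 was 0.04 without col LEC replicate 3 (-0.18 to 0.04 over single arrays), and Ticam1 was -0.01 with array weights and -0.02 without cap LEC replicate 3 (-0.02 to 0.22). Among the 10 genes, col LEC minus cap LEC had 1 call with only the groups compared or with array weights (0 to 1 when single arrays were left out). Of all 19675 genes, 310 and 792 were called in the first 2 of these settings. With no filter, LEC, pre-col LEC and cap LEC each had 2 calls against BEC and col LEC had 3, Tlr4 being added. Of all 30743 genes then tested, 4496, 3004, 4107 and 3187 were called in these comparisons, in that order. Leaving out single arrays gave 1 to 2 calls in LEC, col LEC and pre-col LEC minus BEC, with Ticam1 added in LEC without BEC replicate 1 and Cd14 in pre-col LEC without its replicate 2, and Tlr2 lost in col LEC. The same fits called 3401 to 4410, 2492 to 3353 and 2430 to 3131 of all 19675 genes. Over all genes, col LEC minus cap LEC gave 792 calls with array weights and 180 to 351 without single arrays, beside 322. Pre-col LEC minus cap LEC gave 28 with array weights, 13 under cyclic loess, 1 with an intensity trend and 0 to 1 without single arrays, beside 0. Col LEC minus pre-col LEC gave 153 with array weights, 5 with only the groups compared and 24 to 63 without single arrays, beside 59. The causes were not tested. By the labels, samples shared only a replicate number: same-number pairs correlated from -0.093 to 0.208 and other pairs from -0.143 to 0.176. Among the LEC groups alone the ranges did not overlap, at 0.046 to 0.208 for same-number pairs and -0.143 to 0.024 for others. Arrays of the same number may thus be related there, which the main fit did not model. With the replicate block, LEC minus BEC had 1 call among the 10 genes and 4456 among all, beside 4453, and pre-col LEC minus cap LEC had 3, beside 0. Amplified RNA and dim probes limit what can be read for Tlr4 and Tlr7.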

Other observations

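Innate sensors outside the TLR family were listed beside it. Of 14 such genes 9 were tested in LEC minus BEC, with 1 higher and 6 lower by limma at an adjusted p under 0.05, beside 22.6% of all genes called. Il1r1, the interleukin-1 receptor that also signals through MYD88, had values of 6.13, 6.24 and 6.05 in col LEC, 6.71, 6.60 and 5.93 in pre-col LEC, 6.06, 6.18 and 6.25 in cap LEC, and 8.28, 8.39 and 8.20 in BEC. All LEC arrays lay below all BEC arrays, by -2.05 ± 0.14 (SE, adjusted p = 2.64e-07). The cytosolic RNA sensor genes Ifih1 (MDA5) and Ddx58 (RIG-I) were lower as well, by -1.69 ± 0.12 (adjusted p = 5.47e-07) and -0.82 ± 0.10 (adjusted p = 4.75e-05), also with no overlap. In col LEC minus cap LEC 0 of the 9 were called.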
